A study of Homo sapiens with 6 samples.

Results

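MT-TM is the gene for the mitochondrial transfer RNA of methionine, and its 5' fragments are small RNAs that begin at the first base of that tRNA and stop at different points along it. The table of tRNA-derived fragments held 26 of them among 3443 fragments, with 2654 counts over 6 libraries. They were selected by their structural type (22 listed as 5'-tRF and 4 as 5'-half) and by an identifier that spells the opening bases of MT-TM. Neither of these is a measured value, but the group was picked out on the basis of a known difference between knockout and wild-type libraries. That difference is therefore given as a description, and no p-value for it is printed. Calls of members at a threshold are counted below, and nothing is read from them.

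All libraries came from A375, an established human melanoma cell line grown in DMEM with serum. In 3 libraries the cells were wild-type and had been kept in parallel without targeting. In the other 3 the DUS1L gene had been knocked out with CRISPR/Cas9, followed by selection of clones. The series calls the libraries biological replicates and leaves the number of clones behind the knockout unstated. Effects of the knockout and of a clone therefore cannot be told apart, and the p-values below measure only the spread between these libraries. The table lists tRNA fragments alone, so the loss of DUS1L itself could not be checked.

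Mitochondria use a single tRNA for methionine, both to start and to extend their proteins. It is cut out of a long transcript of the mitochondrial genome, and its anticodon carries a formylated cytidine that lets it read a second methionine codon. Pieces of such tRNAs that keep the 5' end are named 5' tRFs, or 5'-halves for cuts at certain positions of the anticodon loop. DUS1L belongs to the enzymes that reduce uridine to dihydrouridine in the D loop, the first loop that a 5' fragment of a tRNA runs through.

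On GRCh38 the MT-TM gene (ENSG00000210112.1) lies on the plus strand of the mitochondrial chromosome at chrM:4402-4469. It is flanked by MT-TQ, the tRNA gene for glutamine, on the other strand at chrM:4329-4400. MT-ND2, a protein-coding gene for a subunit of respiratory complex I, follows directly at chrM:4470-5511. Counted from the first base of the tRNA, a D stem of perfect pairs covers positions 10 to 13 and 19 to 22 around a loop at 14 to 18. The anticodon loop covers positions 29 to 35, closed by a stem at 24 to 28 and 36 to 40. All 26 identifiers decoded to sequences that match MT-TM from position 1 and no other mitochondrial tRNA. The sequences below are the whole gene and 5 members, chosen to show the shortest form, the most abundant 5'-half, the most abundant form between the anticodon loop and the long forms, and both long forms. Capitals mark the anticodon, written as DNA.
MT-TM, whole tRNA gene: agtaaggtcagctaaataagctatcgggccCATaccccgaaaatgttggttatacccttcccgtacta
MT-TM 17 nt: agtaaggtcagctaaat
MT-TM 32 nt: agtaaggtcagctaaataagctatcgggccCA
MT-TM 39 nt: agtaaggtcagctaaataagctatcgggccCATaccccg
MT-TM 47 nt: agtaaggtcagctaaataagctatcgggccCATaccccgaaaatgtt
MT-TM 50 nt: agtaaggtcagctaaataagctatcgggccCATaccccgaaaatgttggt

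Library totals ran from 15742 to 32754 counts. Within each group every pair of libraries differed by more than sampling noise, with chi-square values of at least 2.56 per degree of freedom. Wild-type replicate 3 stood somewhat apart. Its log2 scaled counts correlated across the tested fragments at 0.775 and 0.772 with wild-type replicates 1 and 2, which correlated at 0.861 with each other. These correlations are over 235 fragments of the same libraries and serve as a description. Values without that library are given where it moved them.

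The length series was dominated by its longest forms. The fragment of 47 nt (tRF-47-1OR6QOH04MR1J5KUB4Q, chrM:4402-4448) held 1326 counts, 49.96% of all counts of these fragments. The fragment of 50 nt (tRF-50-1OR6QOH04MR1J5KUB4Z3, chrM:4402-4451) held 949 counts, or 35.8%. The other 24 members, of 17 to 46 nt, shared 379 counts, 14.3% of the total. Both long forms run through the whole anticodon arm, and the longer one carries the 3 further bases ggt.

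Lengths of 16, 19, 20, 23, 25, 26 and 27 nt had no member, and neither did 48 and 49 nt. The gap at 48 and 49 nt was common to the whole table, which lists no fragment of either length from any tRNA. By contrast it lists 8 fragments of 47 nt and 15 of 50 nt, and 50 nt is its longest length. These counts therefore do not show whether MT-TM fragments stopped at 48 or 49 nt, nor whether RNAs read as 50 nt ended there or ran on.

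Among all fragments of 47 nt, whatever their parent, MT-TM held 1326 of 1336 counts, and among those of 50 nt it held 949 of 1160. Over both lengths its 2 members made up 91.1% of 2496 counts in 23 fragments. Of these 23 fragments 22 matched a mitochondrial tRNA, so long reads in the table were almost entirely mitochondrial. At the next shorter length, 46 nt, the member of MT-TM held 43 of 70 counts.

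The fragment of 47 nt was counted 114, 34 and 34 times in the wild-type replicates, in order, and 494, 321 and 329 times in those of the knockout. As CPM, which sets each count against its library's total after TMM scaling (a trimmed mean of ratios between libraries), these were 3919, 2258 and 1620 in wild-type and 24304, 18975 and 14214 in knockout libraries. Every knockout library lay above every wild-type library. Ranked by counts among the 3443 fragments, it stood at places 37, 68 and 82 in wild-type and at places 8, 8 and 12 in knockout libraries. Its log2 fold change, knockout over wild-type, was 2.86 (SE 0.367) in edgeR's quasi-likelihood fit of the whole table, with means of 2599 ± 1187 and 19164 ± 5047 CPM (SD, n = 3 each).

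The fragment of 50 nt had 85, 25 and 5 counts in wild-type and 394, 188 and 252 counts in knockout replicates 1 to 3. In CPM these were 2922, 1660 and 238 in wild-type and 19384, 11113 and 10887 in knockout libraries. Here too the groups did not overlap, and the wild-type libraries differed more among themselves than for the form of 47 nt. On the log2 scale the fitted difference was 3.07 (SE 0.590). Leaving out wild-type replicate 1 gave 3.98 and leaving out wild-type replicate 3 gave 2.61, the libraries with the most and the fewest counts of this fragment.

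Taken as a share of all counts of a library, the 26 members made up 0.763% (95% Clopper-Pearson interval 0.672 to 0.864), 0.521% (0.414 to 0.646) and 0.326% (0.249 to 0.419) in wild-type replicates 1 to 3. In knockout replicates 1 to 3 they made up 4.85% (4.56 to 5.15), 3.62% (3.34 to 3.92) and 2.91% (2.70 to 3.14). The intervals cover counting error only, and no molecular identifiers are named in the protocol. Group means were 0.537% ± 0.219 and 3.79% ± 0.979 (SD, n = 3 each), and the lowest knockout library was above the highest wild-type library. A share of this kind cannot tell more MT-TM fragments from fewer of the others.

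Within the MT-TM 5' fragments, the members of 47 to 50 nt held a larger part of the counts in the knockout. They held 79.6% (95% Clopper-Pearson interval 74.1 to 84.4), 72.0% (60.9 to 81.3) and 65.0% (51.6 to 76.9) in wild-type replicates 1 to 3. In knockout replicates 1 to 3 they held 88.0% (85.8 to 89.9), 87.6% (84.6 to 90.2) and 86.5% (83.6 to 89.0). The knockout libraries lay close together and above all wild-type libraries, while the interval of wild-type replicate 1 reached up to that of knockout replicate 3. The wild-type mean was 72.2% ± 7.30 and the knockout mean 87.4% ± 0.804 (SD, n = 3 each). Without replicate 3 the wild-type mean was 75.8%. These shares rest on 60 to 250 counts per wild-type library and 581 to 1009 per knockout library.

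The balance between both long forms was alike in most libraries and differed in 1. Of the counts at 47 to 50 nt, the form of 47 nt took 57.3% (95% Clopper-Pearson interval 50.1 to 64.3) and 57.6% (44.1 to 70.4) in wild-type replicates 1 and 2. In wild-type replicate 3 it took 87.2% (72.6 to 95.7) of 39 counts. In knockout replicates 1 to 3 it took 55.6% (52.3 to 58.9), 63.1% (58.7 to 67.3) and 56.6% (52.5 to 60.7). Wild-type replicate 3 is thus the library in which the form of 50 nt was nearly lacking, with 5 counts. The group means were 67.4% ± 17.2 and 58.4% ± 4.04 (SD, n = 3 each), and without that library the wild-type mean was 57.5%.

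The shorter members fell into 3 stretches of the tRNA by where they stop. The 6 that end before the anticodon loop, of 17 to 28 nt, had 34 counts in all, 14 in wild-type and 20 in knockout libraries. The 7 that end in the loop, of 29 to 35 nt, had 46 and 100 counts. The 11 that end after the loop, of 36 to 46 nt, had 35 and 164 counts. The contrast between the groups was larger for forms that end after the anticodon loop, and largest at 47 to 50 nt. In CPM the mean over knockout libraries was 1.38 times that over wild-type libraries for the first stretch, 2.40 times for the second, 5.45 times for the third and 7.84 times for the forms of 47 to 50 nt. The first of these ratios rests on 2, 4 and 8 counts in wild-type and 10, 4 and 6 counts in knockout replicates 1 to 3, which overlap. The step from the first ratio to the second depends on wild-type replicate 3, at 381 CPM in the first stretch and 334 CPM in the second. Wild-type replicates 1 and 2 had 68.8 and 266 CPM in the first and 928 and 797 CPM in the second.

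All 4 members of type 5'-half end in the anticodon loop, at 29 to 32 nt. The most abundant, of 32 nt, stops within the anticodon and had 9, 6 and 1 counts in wild-type and 15, 4 and 7 in knockout replicates 1 to 3, which overlap. The form of 31 nt had 6, 1 and 1 counts against 5, 6 and 10. That of 29 nt had 3, 2 and 1 counts against 10, 3 and 4. The form of 34 nt, which ends just 3' of the anticodon and is listed as a 5'-tRF, had 6, 2 and 2 counts against 9, 5 and 8. In raw counts each of these 4 forms overlapped between the groups. Set against library size as CPM, the forms of 29, 31 and 34 nt lay higher in every knockout library than in any wild-type library, and that of 32 nt still overlapped. The smallest of these gaps, for 29 nt, was between 133 CPM in wild-type replicate 2, from 2 counts, and 173 CPM in knockout replicate 3, from 4 counts.

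Beyond the loop, the form of 39 nt stops inside the 3' strand of the anticodon stem and had 6, 2 and 3 counts in wild-type and 11, 8 and 14 in knockout replicates 1 to 3. Its groups did not overlap, at 206, 133 and 143 CPM against 541, 473 and 605 CPM. The form of 40 nt, which ends with the last base of that stem, had 1, 2 and 0 counts against 6, 4 and 10, again without overlap. The form of 41 nt had 7, 0 and 0 counts against 11, 10 and 5 and overlapped in counts.

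The forms of 45 and 46 nt sit next to the abundant one of 47 nt. The first had 3, 0 and 0 counts in wild-type and 8, 5 and 8 in knockout libraries. The second had 1, 1 and 3 counts against 18, 13 and 7, and its 43 counts compare with 1326 one base farther on. Both separated the groups, as the form of 47 nt did. The remaining 15 members had 1 to 12 counts each over the 6 libraries and 86 together, 26 in wild-type and 60 in knockout libraries.

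Over all members, the mean CPM was higher in the knockout for 22 and lower for 4, and in 11 every knockout library lay above every wild-type library. The same counts over all fragments of the table are not given here, so nothing about the members is read from these. Only 2 members, those of 47 and 50 nt, had enough counts to pass the filter on low values. Both were called higher at an adjusted p under 0.05, where 25.5% of the 235 fragments tested were. As the group was picked out with this difference known, nothing is read from that count. Nor do the 24 untested members count as unchanged.

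Summed, the members of 47 to 50 nt averaged 4019 ± 2260 CPM in the wild-type and 34129 ± 11063 CPM in the knockout group (SD, n = 3 each). The fitted log2 difference of that sum was 3.07 (SE 0.433), or 2.68 when wild-type replicate 3 was left out. The sum of the shorter members averaged 1376 ± 318 and 4874 ± 1281 CPM, a log2 difference of 1.81 (SE 0.296), or 1.59 when wild-type replicate 3 was left out. Both sums were higher in all 3 knockout libraries than in any wild-type library. These values come from a fit in which mitochondrial fragments were summed by gene, end and length class and all other fragments kept single.

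Almost nothing else of the same tRNA was read. Of 2715 counts that matched MT-TM, 97.8% were in its 5' fragments. Internal fragments numbered 49, with 60 counts, and the most abundant (tRF-19-BLFXWK12, positions 14 to 32) had 3 while no other had more than 2. They had 12, 6 and 5 counts in wild-type and 11, 15 and 11 in knockout replicates 1 to 3. As CPM these were 413, 399 and 238 against 541, 887 and 475, so the groups overlapped in counts and did not overlap in CPM. Of these counts, 25 began at positions 14 to 19 and 3 ended at position 47. A single 3' fragment, of 16 nt at positions 56 to 71 with the CCA tail included, had 1 count. Fragments that begin just past the last base of the long forms were nearly missing, with 1 internal count starting at position 48 and 0 at position 51. Whether the long forms end by a cut was not tested. The internal sum did not pass the filter on low counts. Tested with no such filter, it gave an edgeR adjusted p of 0.531 for a log2 difference of 0.84 (SE 0.481), which did not pass the threshold.

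Long 5' fragments of other mitochondrial tRNAs were scarcer and were also higher in the knockout. Besides MT-TM, 4 genes had 5' fragments of 47 to 50 nt, 6 fragments with 184 counts in all. They had 18, 1 and 1 counts in wild-type and 96, 28 and 40 in knockout replicates 1 to 3. Their sum was higher by 3.31 on the log2 scale (SE 0.670, edgeR adjusted p = 0.00229, higher in 3 of 3 knockout libraries), in a table where 26.6% of 241 rows were called higher. It passed the filter on low counts through its knockout libraries, and the rise of long mitochondrial fragments was known from these data beforehand, so the p-value is no independent support. Without wild-type replicate 1 the value was 5.45, with 1 count left in each other wild-type library, and without knockout replicate 1, which holds 96 of the 164 knockout counts, it was 2.58. The change of the MT-TM sum lay within the SE of this one, and the difference between them was not tested.

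The 2 genes with most such counts after MT-TM were MT-TY and MT-TV, the mitochondrial tRNAs for tyrosine (chrM:5826-5891, minus strand) and valine (chrM:1602-1670, plus strand). Their forms of 50 nt are shown to compare with that of MT-TM.
MT-TY 50 nt: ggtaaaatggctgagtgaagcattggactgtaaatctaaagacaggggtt
MT-TV 50 nt: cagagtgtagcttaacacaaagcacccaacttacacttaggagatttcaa
In both, nearly all long counts stood at 50 nt. MT-TY had 98 counts at 50 nt and 0 at 47 nt, and MT-TV had 67 and 3, whereas MT-TM had 949 and 1326. MT-TH, the tRNA for histidine (chrM:12138-12206, plus strand), came next with 14 counts at 50 nt and 1 at 47 nt. Among the genes just named, MT-TM was the one with more counts at 47 than at 50 nt. The remaining gene with such fragments, MT-TI (isoleucine), had 1 count at 47 nt and 0 at 50 nt.

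By group, the 5' fragments of MT-TY at 47 to 50 nt had 6, 0 and 0 counts in wild-type and 63, 11 and 18 in knockout replicates 1 to 3. Those of MT-TV had 9, 0 and 1 against 29, 14 and 17. The fitted log2 differences were 4.11 (SE 0.905) and 2.82 (SE 0.654). They are given as a description, since both genes were taken for their long counts, which lie mostly in the knockout libraries that carried them past the filter. Without wild-type replicate 1 the fitted values were 7.88 and 4.88. That for MT-TY is then set against 0 counts in both remaining wild-type libraries, so it depends on how the fit treats zeros and bounds nothing. Without knockout replicate 1, which holds 63 of the 92 MT-TY counts of the knockout, the value for MT-TY was 2.98. The counts themselves were higher in all knockout libraries than in any wild-type library.

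Below 47 nt MT-TM differed in direction from both. Its shorter 5' fragments were higher in the knockout, as given above. Those of MT-TV fell by 0.88 on the log2 scale (SE 0.258, edgeR adjusted p = 0.0156) and those of MT-TY fell by 0.81 (SE 0.293, edgeR adjusted p = 0.0394), in a table where 25.2% of 242 rows were called lower and 26.4% higher. In counts, MT-TV went from 69, 44 and 60 in wild-type to 29, 27 and 27 in knockout replicates 1 to 3, and MT-TY from 62, 33 and 38 to 21, 26 and 18. The MT-TV call ended with no low-count filter (edgeR adjusted p = 0.135), with DESeq2's Wald test (adjusted p = 0.0804) and without knockout replicate 3 (edgeR adjusted p = 0.0542). The MT-TY call ended with no low-count filter (edgeR adjusted p = 0.238), with DESeq2's Wald test (adjusted p = 0.157) and when wild-type replicate 1 or 2 or knockout replicate 1 or 3 was left out (edgeR adjusted p from 0.0566 to 0.122). The difference between MT-TM and these genes below 47 nt was not tested. Other mitochondrial 5' sums below 47 nt went both ways. MT-TQ and MT-TK (lysine) were higher in the knockout, with log2 differences of 0.92 (SE 0.258) and 0.63 (SE 0.435). The MT-TK value did not pass the threshold (edgeR adjusted p = 0.243). MT-TE (glutamate) was lower, at -1.80 (SE 0.503). Pooled over libraries, the part of 5' counts at 47 to 50 nt was 5.46% (wild-type) and 42.0% (knockout) for MT-TV, 4.32% and 58.6% for MT-TY, and 75.8% and 87.4% for MT-TM. In wild-type, nearly all long counts of MT-TV and MT-TY came from replicate 1. Without it 1 of 105 MT-TV counts was long, 0.952%, and 0 of 71 MT-TY counts. Setting 3 counts in place of 0 gives 4.23% for MT-TY, a rough upper bound that is not an exact binomial interval. For MT-TM the wild-type share without that replicate was 69.0%. By knockout library the share ran from 29.7% to 75.0% for MT-TY, a wide spread beside the 86.5% to 88.0% of MT-TM.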

How the data were processed

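The authors deposited raw read counts, a row for each fragment and a column for each of the 6 libraries. MINTmap is named in the design text as the program that mapped and counted the reads. FastQC, cutadapt, DESeq2 and GRCh38 (hg38) appear in the submitters' processing notes, with each version not given in the sources used here. Small RNA libraries were size-selected before single-end sequencing, per the labels' protocols, which can shape the length series.

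The 3443 identifiers were decoded to sequences of 16 to 50 nt, re-encoded without a mismatch, and matched exactly to the 22 mitochondrial tRNAs of GENCODE 29 (GRCh38) with CCA added. Nuclear copies of mitochondrial sequence were not searched.

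Fragments were filtered with filterByExpr (minimum count of 10), TMM-scaled and fitted with edgeR 4.0.16 in R 4.3.3 (quasi-likelihood test, two-sided, Benjamini-Hochberg adjustment over each whole table, threshold 0.05). Tested fragments held 83.2% to 87.1% of each library's counts. DESeq2 1.42.0 served as an alternative. Intervals are exact binomial (scipy 1.17.1). SE is the log2 fold change divided by the root of F.

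The members, lists and length classes were chosen with earlier results of these data known. Members of 47 to 50 nt or with 20 or more counts are given by library. Of non-members, the most abundant other MT-TM fragments and the 3 other mitochondrial genes with most 5' counts at 47 to 50 nt are named. Further mitochondrial genes were named after their values were seen.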

Additional observations from a re-analysis of the deposited data

How the results depend on the processing

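The sums of MT-TM at 47 to 50 nt and at 16 to 46 nt kept their direction under all 13 alternatives, with log2 fold changes of 2.68 to 3.52 and of 1.55 to 1.92. That of the other long mitochondrial 5' fragments kept its direction and its call under 12 (2.58 to 5.45). The adjusted p ran from 9.78e-13 with edgeR and no low-count filter to 0.00904 with DESeq2's Wald test. With 50 counts required in 3 libraries that sum could not be fitted. The rise of long mitochondrial fragments was known from these data beforehand, so these p-values are no independent support. The number of MT-TM members called higher was 2, and 4 with no low-count filter (45 and 46 nt besides 47 and 50 nt). It was 2 to 4 when 1 library was left out, with 4 without wild-type replicate 2 or 3 (39 and 46 nt added). Over all fragments, 60 were called higher with no low-count filter, 57 without wild-type replicate 2 and 84 without wild-type replicate 3. The group was picked out with its difference known, so nothing is read from the member counts. In the main fit, 60 of the 235 fragments tested were called higher and 66 lower. The higher count was 21 with 50 counts required in 3 libraries, which leaves fewer fragments to test. The lower count was 17 there, 42 with no low-count filter, 31 with DESeq2's Wald test and 28 to 75 with 1 library left out (28 without knockout replicate 1); the cause was not tested.

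The share at 47 to 50 nt was 68.5% to 78.6% in wild-type over 7 alternatives. In the knockout it was 87.4%, and 90.1% without the 5'-halves and 89.99% with the class widened to 45 to 50 nt, both by the change of class itself. DESeq2's size factors moved the median log2 fold change of all fragments from -0.01 to 0.10.

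Replicate numbers are shared between groups. Same-numbered libraries deviated together with correlations of 0.281, 0.0117 and 0.113, and 4 of 6 libraries correlated best with their own number. These values do not settle whether the libraries were paired, and the main fit treated them as unpaired. With a replicate block 60 fragments were higher and 56 lower, and the MT-TM sums had log2 fold changes of 3.19 and 1.82. The calls on the sum of the other long mitochondrial 5' fragments and on the shorter MT-TV and MT-TY fragments did not change with it. At 60 to 250 member counts per wild-type library, none of the 24 members below 47 nt passed the filter on low counts. The internal and 3' sums of MT-TM did not pass it either and gave no value here.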

Other observations

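MT-TQ, the neighbour of MT-TM on the other strand and the tRNA for glutamine, had 2 5' fragments with 162 counts, none of 47 to 50 nt. They had 28, 15 and 18 counts in wild-type and 35, 29 and 37 in knockout replicates 1 to 3. Their sum was higher in all 3 knockout libraries by CPM, with a log2 difference of 0.92 (SE 0.258). The edgeR adjusted p was 0.0123, in a table where 26.4% of 242 rows were called higher. This gene was singled out after its values were seen, for its place beside MT-TM, so the p-value is no independent support. The 5' fragments of MT-TI, the tRNA for isoleucine on the far side of MT-TQ, had 12 counts in all and did not pass the filter on low counts.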
